A study of Mus musculus with 12 samples.

Results

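The comparison concerns the part of the Fgf8 response in the anterior hard palate that changed between embryonic day 14.5 (E14.5) and E16.5. It was taken as the log2 difference between mutants and controls at E16.5 minus the same difference at E14.5, here called the age difference. All 12 of the 12 samples in the series enter it, as 4 groups of 3, and 17550 of the 24391 genes in the count files were tested. The samples are total RNA from dissected anterior palates, the front of the roof of the mouth, of C57BL/6 mouse embryos. Controls of both ages are labelled wild type, with no further allele or agent given. Mutants of both ages are Shox2Cre;R26RFgf8, in which Cre recombinase under the control of the Shox2 gene switches on an Fgf8 transgene placed at the Rosa26 locus. The transgene is thereby limited to cells that have expressed Shox2 and to their descendants, and the labels do not say what share of the dissected tissue these cells were. Whether a sample was 1 embryo or a pool is not stated either, so the p-values measure only the spread between samples of unstated origin.

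FGF8 is a secreted growth factor that binds FGF receptor tyrosine kinases and acts largely through the RAS and MAP kinase cascade. Cells answer it by making feedback inhibitors such as the Sprouty proteins and transcription factors of the ETS family such as ETV4 and ETV5. In the anterior hard palate, mesenchyme derived from the neural crest carries SHOX2, MSX1 and OSR2, and part of it condenses and forms bone directly. The oral side of the shelf becomes a stratified, keratinised epithelium, while the nasal side becomes a ciliated one.

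The level of Fgf8 checks the labels. Fgf8 stood at 0.275, 0.249 and 0.423 CPM in E14.5 controls, 10.5, 11.1 and 10.8 in E14.5 mutants, 0.4298, 0.462 and 0.257 in E16.5 controls, and 16.5, 14.01 and 17.8 in E16.5 mutants. Its level separated every mutant library from every control library at both ages. The log2 fold change was 5.12 at E14.5 and 5.39 at E16.5, and the age difference of 0.27 (SE 0.30) was not called (adjusted p = 0.57). The driver Shox2 had log2 fold changes of 0.25 and 0.63 at the respective ages, with an age difference of 0.38 (SE 0.16, adjusted p = 0.114). That of Shox2 was called without E16.5 mutant 2 (0.538, adjusted p = 0.00557), with the replicate number as a block (0.375, adjusted p = 0.041) and with a term for the samples numbered 3 (0.376, adjusted p = 0.0399). It was 0.098 (adjusted p = 0.723) without E16.5 mutants 1 and 3. Library totals ran from 76417891 to 125996587 counts. Of 6 palate mesenchyme markers (Shox2, Msx1, Osr2, Prrx1, Twist1 and Pax9), 0 were at 0 in any group. Their summed level was 905.3 to 1015 CPM in E14.5 controls, 1842 to 2194 CPM in E14.5 mutants, 781 to 919.9 CPM in E16.5 controls and 1633 to 2548 CPM in E16.5 mutants, where CPM are counts scaled to a common library total.

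Libraries that stood apart from their group touch several results below. E16.5 mutant libraries 1 and 3 held 19 neuron markers at a summed 512.7 and 348.5 CPM, against 153.2 CPM in E16.5 mutant library 2 and 140 to 152.2 CPM in E16.5 controls. Class counts are therefore also given without these 2 libraries. So are counts or medians of lists whose called members then changed by over 1.5 times. That fit leaves a single E16.5 mutant library and takes its spread from the other groups. It called fewer genes in all, so a smaller list count in it need not be particular to the list. Sex-linked transcripts also differed between the groups and are described with the reversing genes. Samples that carry the number 3 deviated together from their group means (correlations of 0.542 to 0.695 across genes between the groups).

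The Fgf8 effect differed between the ages for 3921 of 17550 genes, or 22.3% of those tested, at a Benjamini-Hochberg adjusted p under 0.05 in edgeR's quasi-likelihood test. The effect was more positive at E16.5 for 1750 genes (9.97%) and more negative for 2171 (12.4%). Upper-quartile scaling turned this balance, to 2142 more positive and 1947 more negative. The shares of 9.97% and 12.4% are the background for each main-fit count of list members below. For 1448 of the called genes the age difference was at least 2-fold in size. At the threshold itself, BC030870 lay just inside with an age difference of -2.33, and Gpnmb just outside with 1.32. Without E16.5 mutant libraries 1 and 3, 2017 genes were called, 865 more positive and 1152 more negative. Of the 3921 genes, 3898 then had the same direction and 1867 were called in both fits.

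The called genes were sorted by the genotype effects at the 2 ages. Mutants and controls differed for 950 genes at E14.5 (5.41%) and for 5755 at E16.5 (32.8%) in the same fit. At E14.5, 395 rose (2.25%) and 555 fell (3.16%), and at E16.5, 2590 rose (14.8%) and 3165 fell (18.0%). The E14.5 count, on which the classes depend, was 456 without E14.5 control 1, 525 without E14.5 control 3 and 487 without E14.5 mutant 1. It was 1771 by DESeq2, 2480 with a term for the samples numbered 3, 2798 with the replicate number as a block and 294 in the samples numbered 1 and 2 alone. A late gene was called at E16.5 and not at E14.5, and 2992 genes (17.0%) were of this kind, 1248 rising (7.11%) and 1744 falling (9.94%) at E16.5. A fading gene was called at E14.5 and not at E16.5, and there were 268 (1.53%), of which 90 rose (0.513%) and 178 fell (1.01%) at E14.5. A reversing gene was called at both ages in opposite directions, and there were 144 (0.821%), with 71 that rose then fell (0.405%) and 73 that fell then rose (0.416%). Called at both ages in 1 direction and larger at E16.5 were 38 rises (0.217%) and 30 falls (0.171%), while 6 rises (0.0342%) and 24 falls (0.137%) were smaller at E16.5. The remaining 419 (2.39%) were called for the age difference but at neither age. A late or fading gene can still have had a smaller effect at the other age that missed the threshold, so the class names describe calls and not the absence of a response.

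Levels also changed with age itself, for 66.4% of genes in controls and 51.6% in mutants. The classes differed in which of the 4 group means lay away from the other 3. E16.5 controls stood apart for 1106 of the 1248 late rises and 1637 of the 1744 late falls. E16.5 mutants stood apart for 127 and 84 of them. E14.5 controls stood apart for 69 of the 90 fading rises and 146 of the 178 fading falls. In most late genes, then, the E16.5 mutants and both E14.5 groups had the smallest range once the E16.5 controls were set aside. The rule does not say whether the mutants lay between the E16.5 controls and the E14.5 samples or beyond the latter, nor to which they were nearer. For the late rise Smad9 the E16.5 mutants, at 53.4 to 83.6 CPM, lay above all E14.5 libraries, at 30.2 to 45.7 CPM. For Bmp5 the E16.5 genotypes differed by 1.86 and mutants changed with age by 0.26 on the log2 scale. For Dnah9 the values were -1.82 and 3.69, so its E16.5 mutants were nearer to the E16.5 controls. This is a description of group means, and the rule for the classes fixes part of it.

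**Figure D1:**
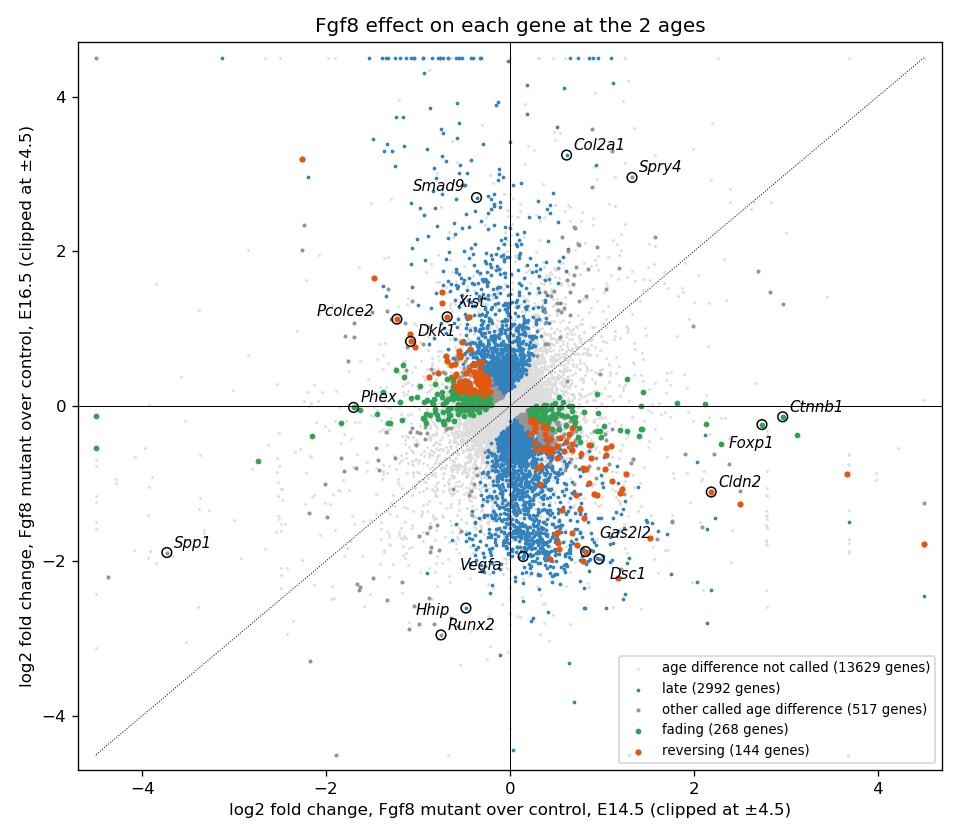
Each point is 1 of the 17550 genes tested, placed by its log2 fold change (mutant over control) at E14.5 on the horizontal axis and at E16.5 on the vertical axis, with values beyond 4.5 drawn at the edge. Blue late genes spread along the vertical axis, green fading genes along the horizontal axis and the 144 orange reversing genes fill the upper left and lower right; circles mark genes named in the text.

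Among genes that rose at E14.5 and fell at E16.5, the 6 with the largest age difference were Cldn2, Lrrc74b, Gas2l2, Uckl1os, Lrrc34 and Rasef. All 6 were low in both genotypes at E14.5 and far higher in E16.5 controls. Cldn2, a claudin that forms cation pores in tight junctions, stood at 0.326, 0.265 and 0.282 CPM in E14.5 controls, 1.41, 1.23 and 1.34 in E14.5 mutants, 21.3, 23.1 and 21.6 in E16.5 controls, and 11.1, 9.72 and 9.79 in E16.5 mutants. No mutant library overlapped a control library at either age, and the direction was opposite. The 6 genes named by size in each class had to show no such overlap where called, so it adds no support. Its log2 fold change was 2.19 at E14.5 (adjusted p = 1.1e-06) and -1.11 at E16.5 (adjusted p = 2.49e-06), an age difference of -3.30 (SE 0.16, adjusted p = 4.63e-07).

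Gas2l2, which links actin and microtubules and is needed for the orientation of motile cilia, stood at 0.286, 0.3503 and 0.259 CPM in E14.5 controls, 0.495, 0.566 and 0.545 in E14.5 mutants, 19.02, 19.4 and 18.95 in E16.5 controls, and 5.05, 5.33 and 5.23 in E16.5 mutants. The E14.5 mutants lay above their controls by less than 1 CPM, whereas the E16.5 mutants lay far below theirs. The fold changes were 0.82 and -1.88 on the log2 scale, with an age difference of -2.70 (SE 0.18, adjusted p = 2.32e-06). Lrrc34, a leucine-rich repeat protein, stood at 4.02, 4.67 and 3.995 CPM in E14.5 controls, 6.57, 4.75 and 5.87 in E14.5 mutants, 45.3, 51.4 and 48.1 in E16.5 controls, and 12.4, 12.7 and 11.7 in E16.5 mutants. Its mutants were the higher group at E14.5, by a small margin, and the lower group at E16.5 (age difference -2.41, SE 0.16, adjusted p = 2.32e-06). Lrrc74b, another leucine-rich repeat protein, Uckl1os, an RNA antisense to Uckl1, and Rasef, a GTPase of the RAB family, had age differences of -2.79, -2.52 and -2.38. Strand use in the counting is not given in the sources used here, so reads of Uckl1os and of Uckl1 may not have been told apart. Cilp, a cartilage matrix protein named from the cartilage list, rose by 0.92 and then fell by 1.13 on the log2 scale. In E16.5 mutants it was at 0.667 to 0.8798 CPM, lower than in any other group.

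Genes that fell at E14.5 and rose at E16.5 included Pcolce2, Atp6v0d2, Ambn, Dkk1, Xist and Pygm as the 6 with the largest age differences. In Pcolce2, Atp6v0d2, Ambn and Dkk1 both genotypes fell between the ages, and mutants fell less. Pcolce2, which enhances the cleavage of procollagen, stood at 28.9, 23.3 and 23.6 CPM in E14.5 controls, 10.8, 10.6 and 10.9 in E14.5 mutants, 3.03, 3.64 and 2.95 in E16.5 controls, and 9.68, 5.09 and 6.11 in E16.5 mutants. Mutants lay below controls at E14.5 and above them at E16.5, with mutant library 1 the highest of its group. The age difference was 2.35 (SE 0.27, adjusted p = 8.46e-05).

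Dkk1, a secreted inhibitor of Wnt signalling, stood at 49.7, 49.4 and 46.1 CPM in E14.5 controls, 21.4, 25.1 and 22.2 in E14.5 mutants, 3.22, 3.51 and 4.15 in E16.5 controls, and 6.57, 5.83 and 7.06 in E16.5 mutants. Levels fell with age in both genotypes, by 3.74 in controls and 1.82 in mutants on the log2 scale, and the order of the genotypes switched. The Dkk1 fold changes were -1.08 (adjusted p = 2.92e-05) and 0.84 (adjusted p = 7.32e-05), with an age difference of 1.92 (SE 0.15). Ambn, which encodes the enamel matrix protein ameloblastin, stood at 31.4, 36.3 and 30.1 CPM in E14.5 controls, 18.6, 22.1 and 18.1 in E14.5 mutants, 2.698, 1.62 and 2.22 in E16.5 controls, and 5.86, 5.32 and 5.23 in E16.5 mutants. All E14.5 mutants were below, and all E16.5 mutants above, the controls of their age (age difference 2.06, SE 0.21, adjusted p = 3.71e-05). Atp6v0d2, a proton pump subunit of osteoclasts, ranged from 6.27 to 8.08 CPM in E14.5 controls and 3.66 to 4.99 CPM in E14.5 mutants to 0.382 to 0.586 CPM in E16.5 controls and 1.21 to 1.49 CPM in E16.5 mutants. Its age difference was 2.21 (SE 0.26). Pygm, the glycogen phosphorylase of muscle, had an age difference of 1.80 and was below 5 CPM in all 12 libraries. Cspg4, a proteoglycan of pericytes named from the smooth muscle list, fell by 0.60 at E14.5 and rose by 0.38 at E16.5 on the log2 scale.

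Sex-linked genes reversed as well. Xist, the RNA that coats the inactive X chromosome in cells with more than 1 X, stood at 861, 709 and 769.8 CPM in E14.5 controls, 441, 521 and 497 in E14.5 mutants, 341, 481 and 389 in E16.5 controls, and 888, 914 and 895 in E16.5 mutants. Its fold changes were -0.68 at E14.5 and 1.155 at E16.5 on the log2 scale. Uty, on the Y chromosome, stood at 5.41, 13.8 and 11.5 CPM in E14.5 controls, 23.99, 23.7 and 24.2 in E14.5 mutants, 33.1, 34.4 and 35.7 in E16.5 controls, and 19.1, 13.2 and 16.9 in E16.5 mutants, which gave the opposite order, 1.22 and then -1.07. Ddx3y, Kdm5d and Eif2s3y, also Y-linked, had age differences of -2.15, -2.08 and -2.09. All 12 libraries held reads of both kinds, and the groups differed in the balance between them. The part of that balance in the other age differences was not tested.

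**Figure D2:**
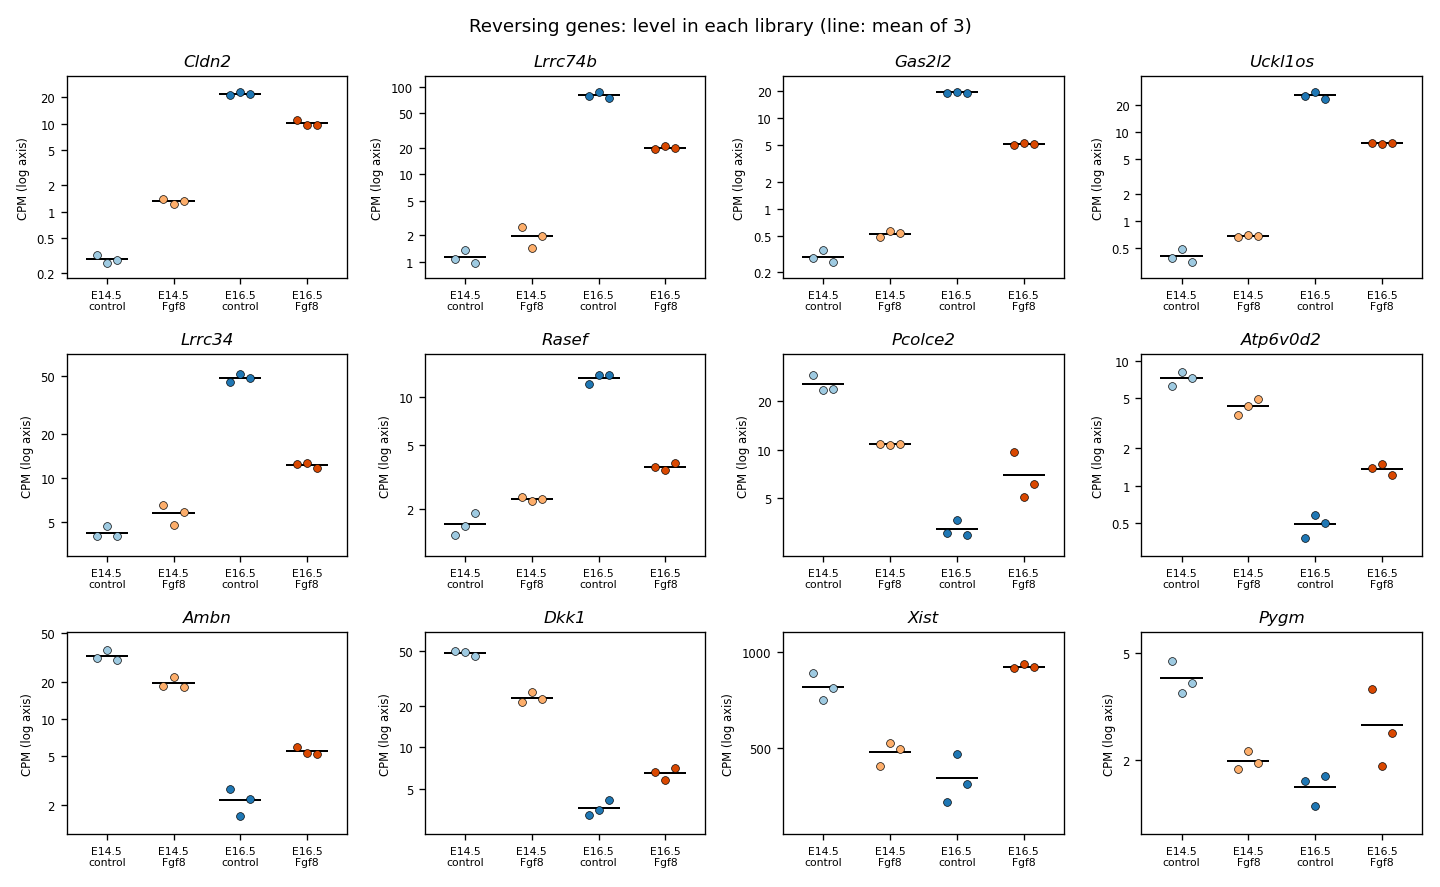
Each panel shows 1 reversing gene in CPM on a log axis, with 3 libraries per group as points and the group mean as a line. In Cldn2, Lrrc74b, Gas2l2, Uckl1os, Lrrc34 and Rasef E14.5 mutants lie above and E16.5 mutants below their controls. In Pcolce2, Atp6v0d2, Ambn, Dkk1, Xist and Pygm the order is the opposite.

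The number of reversing genes depended on single libraries and on the model. It was 60 without E14.5 control 1, 72 without E14.5 control 3, 68 without E14.5 mutant 1, 240 without E14.5 control 2 and 276 without E16.5 mutant 2. Without E16.5 mutants 1 and 3 it was 108, of which 65 were reversing in both fits. It was 379 by DESeq2, 531 with a term for the samples numbered 3, 693 with the replicate number as a block and 16 in the samples numbered 1 and 2 alone.

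Genes of motile cilia and of surface epithelium were among the late falls. The late falls outnumbered the late rises, 1744 to 1248, but with upper-quartile factors there were 1525 late falls and 1546 late rises. Of 27 genes of the nasal and ciliated epithelium list, all tested, 13 had a more negative effect at E16.5 and 0 a more positive one, and 12 of the 13 were late falls. The list's median age difference was -0.996 on the log2 scale, against -0.012 over all genes tested. Their summed level was 2751 to 2922 CPM in E16.5 controls and 1413, 2127 and 2466 CPM in E16.5 mutants 1, 2 and 3, and 247.7 to 408.8 CPM in all E14.5 libraries. In bulk tissue, fewer cells of a type and less RNA per cell cannot be told apart.

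Spata18, a gene linked to mitochondrial quality control, stood at 0.561, 0.576 and 0.764 CPM in E14.5 controls, 1.35, 0.972 and 0.912 in E14.5 mutants, 94.8, 122 and 117 in E16.5 controls, and 24.6, 32.4 and 30.03 in E16.5 mutants. It was low in all 6 E14.5 libraries, then high in all 3 E16.5 controls and lower in all 3 E16.5 mutants. The log2 fold change was -1.94 at E16.5 (adjusted p = 5.93e-07) and 0.78 at E14.5, where it was not called (adjusted p = 0.0518). Nek10, a kinase of the NIMA family active in ciliated airway cells, stood at 0.632, 0.755 and 0.693 CPM in E14.5 controls, 0.941, 0.936 and 0.995 in E14.5 mutants, 9.79, 13.8 and 13.4 in E16.5 controls, and 1.98, 2.83 and 2.91 in E16.5 mutants. Its age difference was -2.73 (SE 0.26, adjusted p = 2.41e-05), and no overlap at E16.5 was a condition for naming it. Nek11, a kinase of the same family, and Mdh1b, a malate dehydrogenase relative, had age differences of -2.70 and -2.63.

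Dnah9, a motor protein of the outer dynein arms that drive ciliary beating, stood at 1.49, 1.82 and 1.87 CPM in E14.5 controls, 1.97, 1.797 and 1.69 in E14.5 mutants, 76.05, 86.8 and 86.2 in E16.5 controls, and 19.6, 25.9 and 24.8 in E16.5 mutants. The E16.5 controls were about even with each other and above every mutant (age difference -1.90, SE 0.17, adjusted p = 1.86e-05). Cfap126, a cilium protein, and Sec14l3, a lipid-binding protein of ciliated airway cells, had age differences of -2.14 and -2.36. Reg3g, a secreted antibacterial lectin of mucosal surfaces, fell by 1.46 at E16.5 on the log2 scale. In both genotypes these genes rose between E14.5 and E16.5. For Dnah9 the rise with age was 5.59 in controls and 3.69 in mutants on the log2 scale.

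The promoters of the late falls were read to see what they share that the classes did not use. RFX transcription factors bind a motif called the X-box in the promoters of many cilium genes, and GTTGCCA is an arm of it. The string GTTGCCA, searched on both strands of the 300-base windows around gene starts from RefSeq (GRCm38.p6), was present for 136 of 1289 late falls that had a promoter in the table (10.6%). It was present for 6 of 49 genes that rose then fell (12.2%), for 33 of 911 late rises (3.62%) and for 0 of 57 genes that fell then rose. The share was 4.87% over the 12997 tested genes with a promoter and 4.38% over all 32851 promoters in the table. The strings were chosen after the classes were known, 13 were searched, and several overlap as longer forms of the X-box. A match is a description of letters, and binding was not measured. The other strings included CCGGAAGT, bound by ETS factors, in 6.83% of late falls and 7.16% of tested genes. TGACTCA, bound by AP-1 factors, was in 5.35% of late falls, 4.96% of tested genes and 7 of 49 genes that rose then fell (14.3%).

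The 4 promoters below show where this arm of the X-box lies in a reversing gene (Lrrc34), in 2 late falls (Mdh1b and Hsph1), and a late fall without it (Nek10). The match is in capitals and each is written 5' to 3' on the strand of its gene in GRCm38.p6, which is not the build of the count files (mm9). Lrrc34 is at chr3:30647769-30648068 on the minus strand, with the match from base 201 of the window. Mdh1b is at chr1:63730269-63730568 on the minus strand, with the match from base 223. Hsph1, a heat shock protein that fell by 0.71 at E16.5 on the log2 scale (age difference -0.76, SE 0.11), is at chr5:149636287-149636586 on the minus strand, with the reverse complement TGGCAAC from base 167. Nek10 is at chr14:14820565-14820864 on the plus strand and holds no match in this window.
Lrrc34: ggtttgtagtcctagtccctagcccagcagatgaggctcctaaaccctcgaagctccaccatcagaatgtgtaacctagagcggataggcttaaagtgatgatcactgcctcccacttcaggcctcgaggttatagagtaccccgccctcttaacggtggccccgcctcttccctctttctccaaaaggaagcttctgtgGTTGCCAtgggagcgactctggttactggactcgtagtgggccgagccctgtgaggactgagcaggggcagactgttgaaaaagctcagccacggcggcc
Mdh1b: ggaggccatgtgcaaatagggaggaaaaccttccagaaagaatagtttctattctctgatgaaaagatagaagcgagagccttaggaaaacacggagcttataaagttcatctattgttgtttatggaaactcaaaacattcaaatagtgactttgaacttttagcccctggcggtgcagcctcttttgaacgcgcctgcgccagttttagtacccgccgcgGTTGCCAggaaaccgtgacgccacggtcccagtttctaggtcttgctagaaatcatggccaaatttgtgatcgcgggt
Hsph1: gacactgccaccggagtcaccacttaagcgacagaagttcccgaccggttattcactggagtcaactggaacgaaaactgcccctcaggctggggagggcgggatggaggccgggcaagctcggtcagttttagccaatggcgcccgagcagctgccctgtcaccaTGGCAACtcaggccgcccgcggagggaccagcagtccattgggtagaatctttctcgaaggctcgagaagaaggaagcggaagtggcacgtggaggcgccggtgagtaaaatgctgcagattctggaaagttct
Nek10: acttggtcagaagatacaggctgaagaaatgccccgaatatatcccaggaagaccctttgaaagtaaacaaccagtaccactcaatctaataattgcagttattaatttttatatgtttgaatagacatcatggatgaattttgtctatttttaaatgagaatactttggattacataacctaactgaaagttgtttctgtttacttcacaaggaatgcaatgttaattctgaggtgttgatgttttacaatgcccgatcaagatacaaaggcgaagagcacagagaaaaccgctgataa

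Some epithelial genes of the oral side were late falls too. Of 24 genes of the cornified epithelium list 23 were tested, and 10 had a more negative and 0 a more positive effect at E16.5, 9 of them as late falls (median age difference -0.868). Dsc1, a desmosomal cadherin of the upper layers of stratified epithelium, stood at 0.0816, 0.171 and 0.176 CPM in E14.5 controls, 0.347, 0.148 and 0.355 in E14.5 mutants, 51.9, 52.05 and 61.8 in E16.5 controls, and 14.5, 12.8 and 14.9 in E16.5 mutants. It was below 1 CPM in all E14.5 libraries and separated the genotypes at E16.5 (age difference -2.94, SE 0.37, adjusted p = 0.000156). Krt10, a keratin of the layers above the basal one, stood at 13.3, 18.9 and 15.98 CPM in E14.5 controls, 16.9, 20.3 and 16.9 in E14.5 mutants, 868, 713 and 826 in E16.5 controls, and 424, 378 and 422 in E16.5 mutants. Its fold change was -0.98 at E16.5 (adjusted p = 4.32e-05) and 0.17 at E14.5 (adjusted p = 0.486). Tgm1, the transglutaminase that crosslinks the cornified envelope, and Krtdap, a secreted protein of differentiating keratinocytes, had age differences of -0.999 and -1.04. Summed cornified markers stood at 25740 to 26440 CPM in E16.5 controls and 16320 to 20480 CPM in E16.5 mutants.

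In the oral and basal epithelium list all 28 genes were tested, with 13 more negative and 0 more positive (median age difference -0.706). Of these, 6 were late falls, and 7 were called at neither age. At E16.5 itself 6 of the 28 fell, a share near the 18.0% of all genes. In the samples numbered 1 and 2 alone this list gave 3 more negative and 0 more positive (median -0.661). That fit called 1110 of 17635 genes more negative. The simple-epithelium keratins Krt8, Krt18 and Krt19 and the claudin Cldn7 had the largest age differences, -1.38, -1.29, -1.23 and -1.51. Krt8 stood at 77.7, 106 and 90.5 CPM in E14.5 controls, 135, 99.2 and 114 in E14.5 mutants, 419, 438 and 397 in E16.5 controls, and 161, 256 and 194 in E16.5 mutants, with E16.5 mutant 1 the lowest of its group. The summed level of this list in E16.5 mutants 1, 2 and 3 was 14620, 24050 and 20570 CPM, so mutant 2 lay within the control range of 22960 to 24460 CPM. Without E16.5 mutants 1 and 3 the median age difference was -0.934 for the nasal and ciliated list. It was -0.749 for the cornified list and -0.376 for the oral and basal list, against 0.009 over all genes. Krt19 (-0.94) and Krtdap (-0.77) were then not called. Without E14.5 control 1, which had the lowest sum of the oral and basal list at 2152 CPM, that list's count was 8 and 0. That fit called 1723 of 17807 genes more negative and 1276 more positive.

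Named late falls also came from other lists. Vegfa, the main growth factor for blood vessels, stood at 80.05, 88.1 and 77.9 CPM in E14.5 controls, 79.8, 107 and 85.1 in E14.5 mutants, 103, 112 and 102 in E16.5 controls, and 18.7, 33.1 and 31.1 in E16.5 mutants. The E14.5 genotypes overlapped, and at E16.5 each mutant lay far below every control. Its age difference was -2.09 (SE 0.24, adjusted p = 8.94e-05). Hhip, a membrane protein that binds and limits Hedgehog ligands, stood at 61.3, 55.8 and 62.9 CPM in E14.5 controls, 40.01, 41.2 and 48.05 in E14.5 mutants, 44.3, 39.7 and 52.9 in E16.5 controls, and 6.45, 9.45 and 6.67 in E16.5 mutants. Its fold change was -0.48 at E14.5 (adjusted p = 0.0627) and -2.61 at E16.5 (adjusted p = 1.54e-07). Fgf18, an FGF ligand made in developing bone and cartilage, stood at 8.57, 8.03 and 8.38 CPM in E14.5 controls, 5.57, 5.31 and 5.202 in E14.5 mutants, 5.19, 5.699 and 4.84 in E16.5 controls, and 0.343, 1.23 and 0.857 in E16.5 mutants. Mutants were lower at both ages, but the E14.5 fold change of -0.63 missed the threshold (adjusted p = 0.194), and the age difference was -2.10 (SE 0.39). Cd36, a fatty acid transporter named from the adipocyte list, fell at E16.5 by 1.27 on the log2 scale, with an age difference of -0.97. Cd177, a surface glycoprotein known from neutrophils, fell by 2.08.

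Late rises began with genes of BMP signalling. Of 33 BMP pathway genes, all tested, 12 had a more positive effect at E16.5 and 1 a more negative one, with 7 late rises and a median age difference of 0.261. Smad9, a receptor-regulated SMAD that passes on BMP signals, stood at 45.7, 38.2 and 42.6 CPM in E14.5 controls, 30.2, 33.1 and 35.1 in E14.5 mutants, 10.5, 11.3 and 11.7 in E16.5 controls, and 53.4, 83.6 and 80.4 in E16.5 mutants. Between the ages it changed by -1.92 in controls and by 1.14 in mutants on the log2 scale. The genotypes at E16.5 were 2.70 apart (adjusted p = 1.34e-07), and the age difference was 3.06 (SE 0.20, adjusted p = 2.32e-06). Bmp5, a BMP ligand, stood at 20.5, 13.3 and 16.8 CPM in E14.5 controls, 14.4, 14.3 and 13.5 in E14.5 mutants, 5.01, 4.52 and 4.48 in E16.5 controls, and 14.6, 18.5 and 17.6 in E16.5 mutants, with the E16.5 mutants near the E14.5 level. Msx1, a homeobox factor induced by BMPs and needed for palate closure, ran at 89.7 to 103 and 87.2 to 117 CPM in E14.5 controls and mutants, 11.5 to 19.2 CPM in E16.5 controls and 44.7 to 79.7 CPM in E16.5 mutants. The age differences of Bmp5, Msx1 and the ligand Bmp2 were 2.12, 2.03 and 0.85.

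Palate patterning and Wnt genes also had more positive than negative age differences. Of 31 palate mesenchyme factors, all tested, 11 were more positive and 3 more negative (median 0.163), and of 28 canonical Wnt genes, all tested, 11 and 2 (median 0.332). Dlx1, a homeobox factor of the jaws, stood at 39.7, 37.05 and 37.4 CPM in E14.5 controls, 35.6, 44.8 and 39.9 in E14.5 mutants, 6.17, 2.805 and 5.57 in E16.5 controls, and 23.8, 17.2 and 19.9 in E16.5 mutants. It had dropped with age in controls by 2.97 on the log2 scale and in mutants by 0.98. Rspo2 and Rspo4, secreted ligands that strengthen Wnt signalling, had age differences of 2.03 and 2.76, all libraries of Rspo4 being under 4 CPM. Shh, the Hedgehog ligand made by the palatal ridges, stood at 18.6, 24.4 and 25.03 CPM in E14.5 controls, 16.98, 19.7 and 18.7 in E14.5 mutants, 14.1, 11.1 and 14.7 in E16.5 controls, and 23.2, 26.4 and 27.4 in E16.5 mutants. Its genotypes overlapped at E14.5 and separated at E16.5 (age difference 1.24, SE 0.18, adjusted p = 0.000472). Lhx6, a LIM homeobox factor of oral mesenchyme, had an age difference of 1.004. Without E16.5 mutants 1 and 3 the Wnt list had 5 more positive and 3 more negative genes, the palate list 10 and 3, and Rspo4 (2.10) was not called.

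Col2a1, the main collagen of cartilage, stood at 57.8, 45.1 and 65.2 CPM in E14.5 controls, 86.5, 81.1 and 90.1 in E14.5 mutants, 24.5, 29.8 and 29.9 in E16.5 controls, and 229, 369 and 201 in E16.5 mutants. Mutants lay above controls at both ages, and E16.5 mutant 2 was the highest library of all. At E14.5 the fold change of 0.62 was not called (adjusted p = 0.0861), at E16.5 it was 3.24 (adjusted p = 3.7e-07), and the age difference was 2.63 (SE 0.28). Cytl1, a secreted protein of chondrocytes, was below 1 CPM in all E14.5 libraries and all E16.5 controls and at 6.71 to 20.4 CPM in E16.5 mutants. Of 25 cartilage genes tested of 27 in the list, 7 were more positive and 4 more negative (median 0.408), against 9.97% and 12.4% of all genes.

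Egr3, an immediate early transcription factor, stood at 19.1, 27.2 and 26.3 CPM in E14.5 controls, 15.2, 13.1 and 16.6 in E14.5 mutants, 2.13, 1.31 and 2.83 in E16.5 controls, and 8.05, 7.41 and 7.99 in E16.5 mutants. Its mutants were lower at E14.5, where the difference was not called, and higher at E16.5 (age difference 2.60, SE 0.30, adjusted p = 8.18e-05). Grik3, a kainate receptor subunit, Cbln1, a secreted organiser of synapses, and Rprm, a cell cycle inhibitor induced by p53, had age differences of 2.76, 2.37 and 2.36. For Grik3 the E16.5 mutants, at 6.44 to 10.2 CPM, lay near the E14.5 levels of 7.52 to 9.26 and 6.26 to 8.74 CPM, while the E16.5 controls were at 1.09 to 2.01 CPM.

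Of the 32 lists, that of vessel genes had the largest share of called members. Of 20 endothelial genes, all tested, 17 had a more positive and 0 a more negative effect at E16.5, with 13 late rises, 2 fading falls and 2 that fell then rose (median age difference 0.88). Kdr, the main VEGF receptor of endothelium, stood at 95.2, 90.9 and 97.4 CPM in E14.5 controls, 71.2, 76.9 and 79.4 in E14.5 mutants, 35.2, 36.8 and 40.4 in E16.5 controls, and 78.97, 47.7 and 68.5 in E16.5 mutants. Mutants were below controls at E14.5, where the fold change of -0.32 was not called (adjusted p = 0.206), and above them at E16.5 (0.80, adjusted p = 0.000663). Flt1, another VEGF receptor, Eng, a TGF-beta co-receptor of vessels, and Vwf, the von Willebrand clotting factor, had age differences of 1.10, 1.01 and 1.03. Summed endothelial levels were 937 to 1004, 780.3 to 822.6, 426.2 to 448 and 586.2 to 720.8 CPM in E14.5 controls, E14.5 mutants, E16.5 controls and E16.5 mutants. The count of 17 and 0 was the same without E16.5 mutants 1 and 3. Of 16 smooth muscle and pericyte genes, all tested, 10 were more positive and 1 more negative (median 0.483), among them the contractile genes Actg2 (1.68) and Cnn1 (1.84) and the channel subunit Kcnj8 (1.36). Without E16.5 mutants 1 and 3 these counts were 6 and 0, and Cnn1 (1.65) and Kcnj8 (0.83) were not called.

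Neuron genes were late rises that moved with 2 libraries. All 19 were tested, with 14 more positive and 0 more negative (median 2.163). Elavl3, an RNA-binding protein of neurons, stood at 4.16, 0.638 and 2.82 CPM in E14.5 controls, 0.668, 1.06 and 0.877 in E14.5 mutants, 0.561, 0.1802 and 0.335 in E16.5 controls, and 18.6, 0.133 and 11.4 in E16.5 mutants. E16.5 mutants 1 and 3 were high, and mutant 2 was the lowest of the 12 libraries. Without mutants 1 and 3, 1 neuron gene was more positive and 0 more negative, and the age difference of Elavl3 moved from 6.35 to 0.15. Fgf15, an FGF ligand also expressed in neural tissue, stood at 40.4, 0.347 and 21.2 CPM in E16.5 mutants 1, 2 and 3 and under 1 CPM in the other 9 libraries, and its age difference moved from 6.22 to 0.33. Of 16 retina genes tested of 18, 3 were more positive and 0 more negative (median 4.807), and without these 2 libraries 1 was more positive and 3 more negative of 17 then tested. The late rises as a class numbered 456 without these 2 libraries and the late falls 878, and 1242 of the 2992 late genes were late in both fits.

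**Figure D3:**
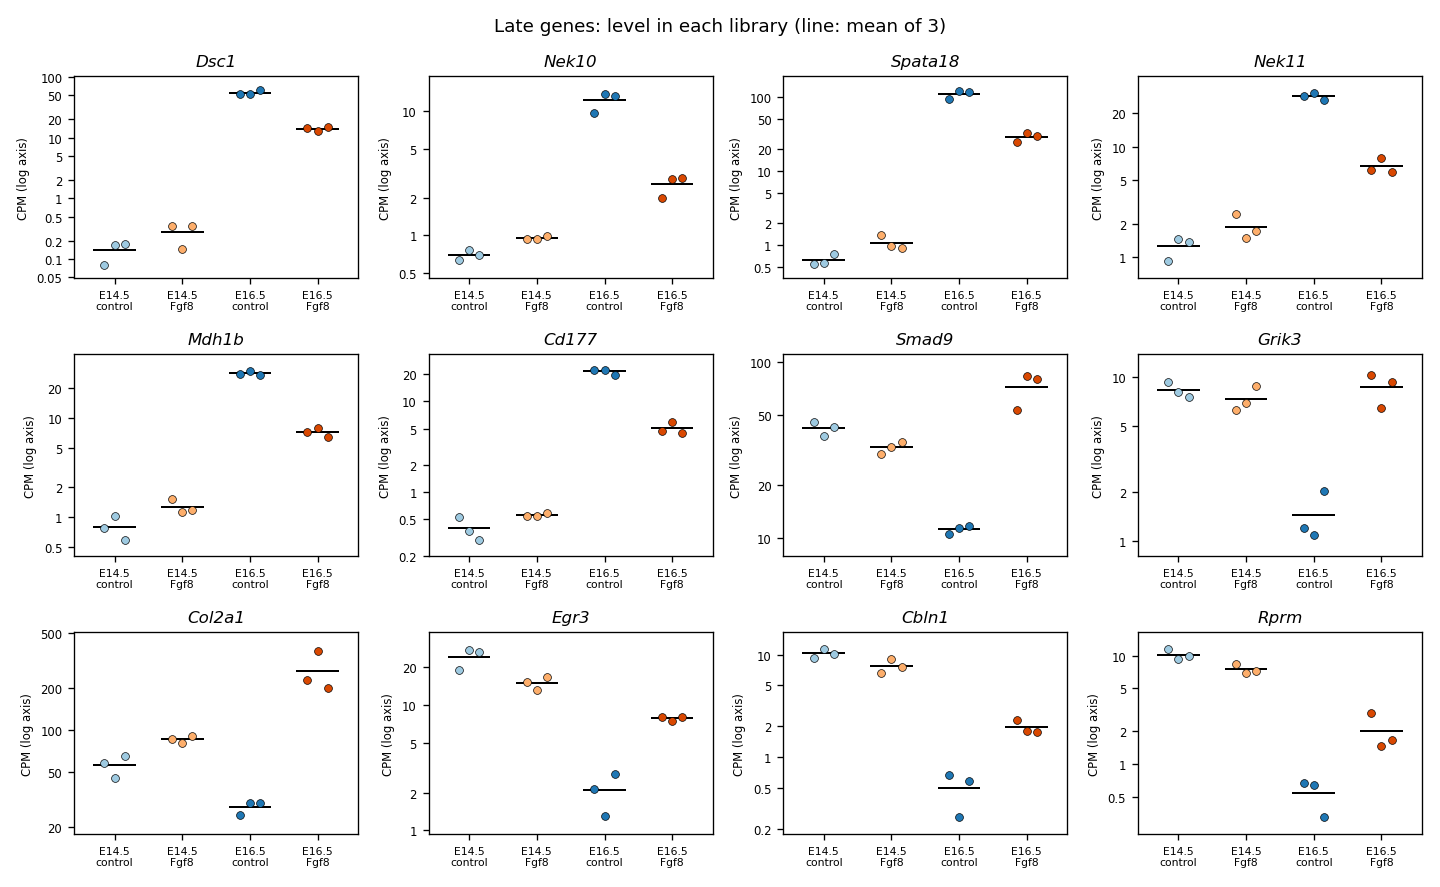
Each panel shows 1 late gene in CPM on a log axis, with 3 libraries per group as points and the group mean as a line. In Dsc1, Nek10, Spata18, Nek11, Mdh1b and Cd177 the E16.5 mutants lie below the E16.5 controls, in Smad9, Grik3, Col2a1, Egr3, Cbln1 and Rprm they lie above them, and the genotype effect at E14.5 was not called for these 12 genes.

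Fading rises were few, and the 4 with the largest age differences were large at E14.5. Ctnnb1, which encodes beta-catenin of cell adhesion and Wnt signalling, stood at 212, 231 and 262 CPM in E14.5 controls, 1873, 1792 and 1845 in E14.5 mutants, 1846, 1866 and 1856 in E16.5 controls, and 1567, 1806 and 1692 in E16.5 mutants. The E14.5 controls lay far below the other 9 libraries, which formed 1 narrow range. The fold change was 2.97 at E14.5 (adjusted p = 5.96e-10) and -0.14 at E16.5 (adjusted p = 0.187), an age difference of -3.10 (SE 0.11, adjusted p = 1.34e-08). Tgfbr2, the type II receptor for TGF-beta, stood at 41.2, 35.2 and 28.5 CPM in E14.5 controls, 148, 145 and 164 in E14.5 mutants, 190.5, 193 and 209.6 in E16.5 controls, and 198, 195 and 213 in E16.5 mutants. Here too the E14.5 controls were the low group and the genotypes at E16.5 overlapped (age difference -2.09, SE 0.15, adjusted p = 4.81e-06).

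Foxp1 and Foxp2, forkhead transcription factors, followed. Foxp1 stood at 13.03, 7.71 and 11.9 CPM in E14.5 controls, 65.7, 68.9 and 82.95 in E14.5 mutants, 107, 107 and 142 in E16.5 controls, and 78.8, 98.6 and 125 in E16.5 mutants, with E14.5 controls lowest. Foxp2 stood at 2.75, 4.76 and 5.59 CPM in E14.5 controls, 19.8, 17.5 and 27.2 in E14.5 mutants, 6.63, 5.87 and 7.52 in E16.5 controls, and 5.19, 3.93 and 5.12 in E16.5 mutants, and in contrast to Foxp1 its E14.5 mutants were the high group. Their age differences were -2.98 (SE 0.28) and -2.79 (SE 0.33). Tacr1, the receptor for substance P, and Bhlhe22, a basic helix-loop-helix factor, had age differences of -1.79 and -1.72. Bhlhe22 was at 4.12 to 5.12 CPM in E14.5 controls, 10.96 to 13.3 CPM in E14.5 mutants and 16.9 to 18.2 CPM in E16.5 controls. Etv4, an ETS factor induced by FGF signalling, rose at E14.5 by 0.76 (adjusted p = 0.0333) and had a fold change of -0.47 at E16.5 (adjusted p = 0.0925). Without E16.5 mutants 1 and 3 the age difference of Etv4 went from -1.23 to -0.70 and was not called.

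Fading falls included genes of bone matrix. Phex, an endopeptidase of osteoblasts that governs phosphate handling, stood at 64.2, 46.4 and 57 CPM in E14.5 controls, 18.2, 14.99 and 18.4 in E14.5 mutants, 5.34, 7.56 and 7.61 in E16.5 controls, and 6.95, 5.91 and 7.42 in E16.5 mutants. The E14.5 controls were high, the E14.5 mutants lower, and all E16.5 libraries lower still with the genotypes overlapping. The fold change was -1.70 at E14.5 (adjusted p = 2.35e-05) and -0.02 at E16.5 (adjusted p = 0.953), an age difference of 1.68 (SE 0.22). Slc9a2, a sodium and proton exchanger, and Cdh23, a cadherin known from hair cells, also fell with age in controls. Slc9a2 was at 6.97 to 11.7 CPM in E14.5 controls and 0.793 to 0.946 CPM in E16.5 controls, and its age difference was 1.70. Cdh23 was at 5.12 to 5.33 and 0.771 to 1.21 CPM in the same groups, with an age difference of 1.70. Sez6l, a membrane protein of neurons, differed from these. It stood at 10.7, 9.01 and 11.4 CPM in E14.5 controls, 3.404, 3.67 and 4.37 in E14.5 mutants, 17.8, 19.05 and 19.1 in E16.5 controls, and 17.4, 16.7 and 17.8 in E16.5 mutants, so that only the E14.5 mutants were below 5 CPM. Grm4, a glutamate receptor, and Chad, the cartilage matrix protein chondroadherin, had age differences of 1.58 and 1.63, and Chad was at 0.83 and not called without E16.5 mutants 1 and 3. Klf2, a transcription factor induced by blood flow, fell by 1.01 at E14.5 on the log2 scale and had a fold change of 0.12 at E16.5. Col6a3, a chain of collagen VI, fell by 0.80 and then had a fold change of 0.16 (adjusted p = 0.301).

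**Figure D4:**
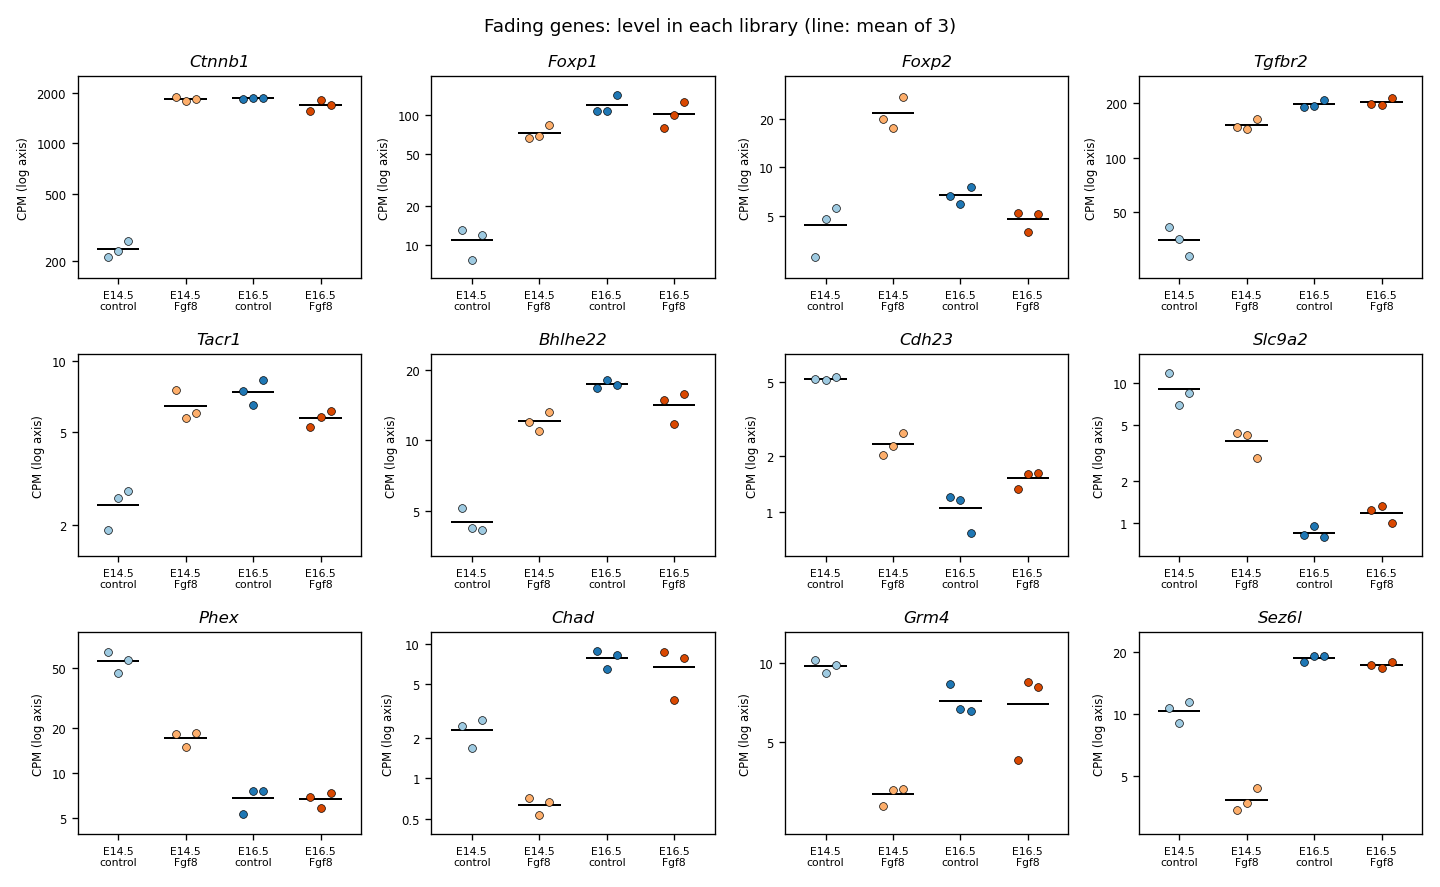
Each panel shows 1 fading gene in CPM on a log axis, with 3 libraries per group as points and the group mean as a line. For Ctnnb1, Tgfbr2 and Foxp1 the E14.5 controls lie below all other libraries, and for Phex, Slc9a2 and Cdh23 the E14.5 controls lie above all other libraries.

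The number of fading genes was 119 without E14.5 control 1, 143 without E14.5 control 3 and 134 without E14.5 mutant 1. Without E16.5 mutants 1 and 3 it was 283, of which 125 were fading in both fits. It was 446 by DESeq2, 696 with a term for the samples numbered 3, 753 with the replicate number as a block and 92 in the samples numbered 1 and 2 alone.

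Of 32 osteoblast and bone matrix genes 25 fell at E14.5 and 17 at E16.5, against 3.16% and 18.0% of all genes. The age differences of the 32 went both ways. All 32 were tested, and 14 were more positive and 7 more negative at E16.5 (median age difference 0.323). They included 7 fading falls, 7 that moved further at E16.5 and 4 that moved less. Runx2, the master transcription factor of osteoblasts, stood at 300.5, 259 and 326 CPM in E14.5 controls, 152, 173 and 202 in E14.5 mutants, 59.8, 66.6 and 73.6 in E16.5 controls, and 6.17, 10.3 and 9.503 in E16.5 mutants. Mutants were below controls at both ages, and by more at E16.5, with fold changes of -0.75 and -2.95 (age difference -2.20, SE 0.23, adjusted p = 4.87e-05). Col1a2, a chain of type I collagen, followed the same course, with -0.98 and -2.81. Spp1, the bone matrix protein osteopontin, went the other way. It stood at 87.9, 206 and 130.0 CPM in E14.5 controls, 16.4, 4.71 and 10.8 in E14.5 mutants, 19.5, 22.8 and 19.3 in E16.5 controls, and 3.998, 6.12 and 6.63 in E16.5 mutants, a fold change of -3.73 at E14.5 and -1.89 at E16.5. E14.5 control 2 was the highest Spp1 library, and without it the age difference of 1.84 became 1.495 and was not called. It was not called either without E16.5 control 1 (1.83) or E16.5 mutant 3 (1.73).

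Matrix genes outside the bone list also went both ways. Of 28 tested of 30 genes of the TGF-beta and matrix list, 13 were more positive and 4 more negative (median 0.264). Fn1, which encodes fibronectin, stood at 1476, 1302 and 1445 CPM in E14.5 controls, 762, 778 and 835 in E14.5 mutants, 533, 592 and 623 in E16.5 controls, and 52.3, 106 and 91.7 in E16.5 mutants. Lox, which crosslinks collagen, stood at 515, 469.8 and 549 CPM in E14.5 controls, 226, 236 and 281 in E14.5 mutants, 419, 426 and 512 in E16.5 controls, and 61.5, 86.5 and 80.01 in E16.5 mutants. For both, mutants were below controls at each age and the gap was wider at E16.5, with age differences of -1.98 (SE 0.26) and -1.53 (SE 0.18). Timp3, an inhibitor of matrix proteases, was more positive, by 0.86. Col12a1, a fibril-associated collagen, fell by 0.98 at E14.5 and by 0.34 at E16.5. Mmp9, a gelatinase of osteoclasts, fell by 0.77 and 1.85, and its age difference of -1.09 was -0.80 and not called without E16.5 mutants 1 and 3.

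Genes of the FGF pathway had called age differences in both directions. Of 18 feedback and target genes, all tested, 6 were more positive and 3 more negative (median 0.117), against 9.97% and 12.4% of all genes. Without E16.5 mutants 1 and 3 the median was -0.024. Of the 18, 6 rose at E14.5 and 9 at E16.5, against 2.25% and 14.8% of all genes. Spry4, a Sprouty inhibitor of the MAP kinase cascade, stood at 18.8, 20.6 and 26.2 CPM in E14.5 controls, 48.6, 52.6 and 63.3 in E14.5 mutants, 7.61, 6.79 and 10.4 in E16.5 controls, and 66.7, 48.1 and 77.3 in E16.5 mutants. It rose at both ages and further at E16.5, where controls had dropped (1.33 and 2.96, age difference 1.63, SE 0.27, adjusted p = 0.00106). Dusp5, a phosphatase of nuclear ERK, had no called effect at E14.5 and fell by 1.16 at E16.5, and its age difference of -1.52 was -1.33 and not called without E16.5 mutants 1 and 3. Ccnd1, a cyclin induced by growth factors, stood at 215, 175 and 201 CPM in E14.5 controls, 144, 135 and 145 in E14.5 mutants, 80.98, 78.1 and 89.4 in E16.5 controls, and 292, 66.8 and 191 in E16.5 mutants, with E16.5 mutant 2 below the controls and the other E16.5 mutants above them. Its age difference of 1.62 (adjusted p = 0.0303) became 1.14 without E16.5 mutant 1 and 0.19 without E16.5 mutants 1 and 3. It was not called in 9 of the 12 fits that leave out 1 library. Of 25 tested of 28 FGF ligands and receptors other than Fgf8, 8 were more positive and 2 more negative (median 0.536), Fgf15 and Fgf18 among them. These counts were 2 and 1 of 27 then tested (median 0.297) without E16.5 mutants 1 and 3.

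Of 36 cell cycle genes, all tested, 3 were more positive and 2 more negative, against 9.97% and 12.4% of all genes, and the median was 0.067. The counts moved with the setting, to 8 and 1 with upper-quartile factors, 9 and 3 with a term for the samples numbered 3, and 1 and 1 without E16.5 mutants 1 and 3. Cdk6, a kinase of the entry into S phase, had the largest age difference of the list. It stood at 1.79, 1.52 and 1.35 CPM in E14.5 controls, 10.7, 11.1 and 14.8 in E14.5 mutants, 9.36, 8.31 and 12.1 in E16.5 controls, and 16.7, 34.4 and 23.5 in E16.5 mutants, and its mutants were above controls at both ages. The rise was 2.97 at E14.5 and 1.32 at E16.5 on the log2 scale (age difference -1.65, SE 0.34, adjusted p = 0.00413).

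**Figure D5:**
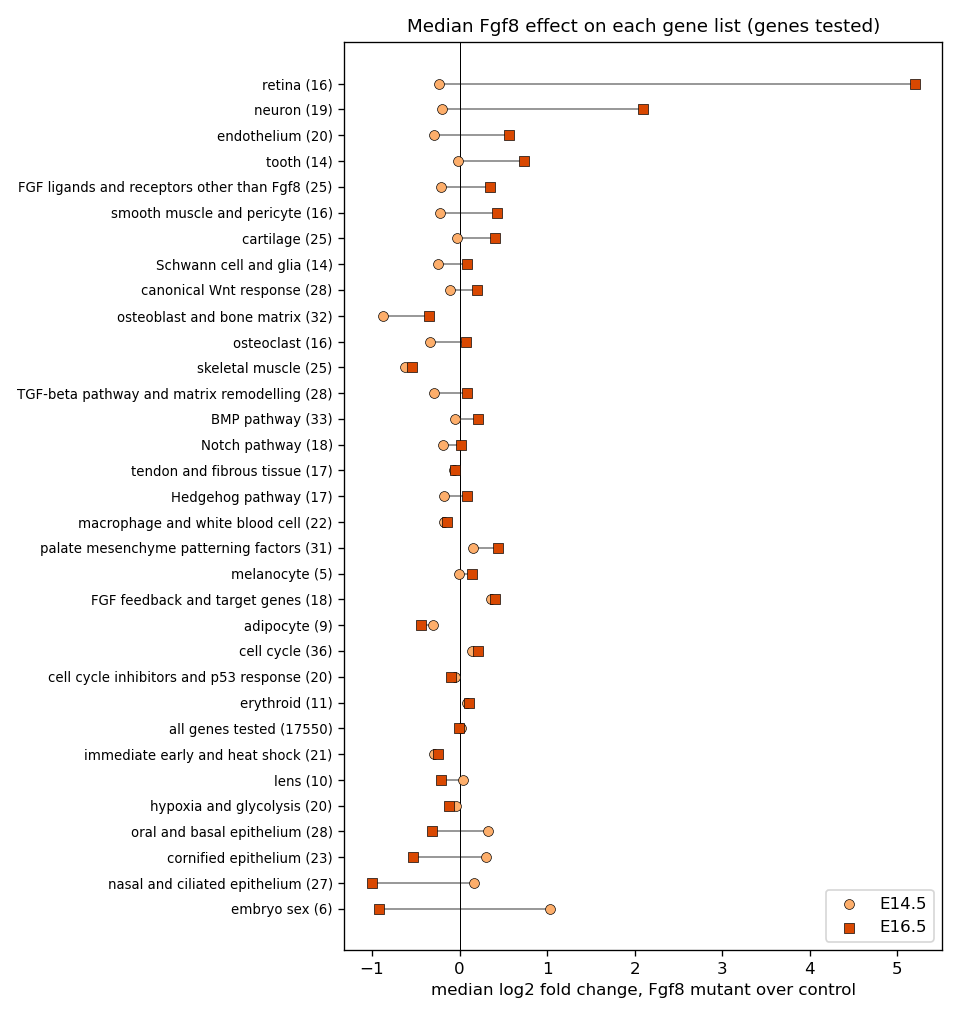
Each row is 1 gene list (genes tested in brackets), with the median log2 fold change of mutants over controls at E14.5 as a circle and at E16.5 as a square, ordered by the median age difference. The endothelium list moved from -0.289 to 0.57, the nasal and ciliated list from 0.168 to -1.006, the cornified list from 0.301 to -0.529, the oral and basal list from 0.323 to -0.317, and the bone list lay below 0 at both ages (-0.871 and -0.35).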

How the data were processed

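Total RNA of 12 anterior palate samples was sequenced. The submitters' processing notes name HISAT2, featureCounts and mm9, and the authors deposited 1 file of raw counts per sample. Versions, annotation and strand setting are not given in the sources used here. The 24 per-sample columns of the deposited series-wide tables were not used, nor were the authors' DESeq2 tables. Of 24391 genes, 23322 symbols matched the reference names, and 27 names that read as dates (0.251% of counts) were kept in the fit and never named. Genes are keyed by symbol, so no mm9 coordinates are given.

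All 12 samples entered 1 fit in edgeR 4.0.16 under R 4.3.3 (filterByExpr, TMM factors of 0.9557 to 1.041, quasi-likelihood test, 4 group means). A call is a Benjamini-Hochberg adjusted p under 0.05 over the 17550 genes tested. The standard error is the size of the log2 fold change divided by the square root of F. CPM are scaled by the TMM factors. The 2 genotype effects rest on different samples, and the changes with age share samples with both. The script was tested on simulated counts.

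The comparison, its classes and the 32 gene lists were chosen with earlier results of these data known. The genes named were Fgf8 and Shox2 and, in each of 6 classes, the 6 with the largest age difference. These had a mean log2 CPM of 1 or more, no overlap of genotypes where called and, within each group, a highest library at most 3 times the lowest (CPM plus 0.5). Predicted genes, date-like names and retina genes were skipped. Each list then gave up to 4 called members, or up to 2 where none was called, that reached 1 CPM in a group. Prrx1, Twist1, Osr2 and Pax9 are named as palate markers and the genes at the threshold for their rank. Some retina genes are not reported here.

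Alternatives were DESeq2 1.42.0, limma-voom (limma 3.58.1), DESeq2 size factors and upper-quartile factors, other low-count filters, a 2-fold minimum, separate fits per age, a replicate block and each library left out. A term for the samples numbered 3, those numbered 1 and 2 alone, and E16.5 mutant libraries 1 and 3 left out were tried with the pattern already known. Same-numbered samples of the 2 E16.5 groups had correlated deviations from their group means (0.196, 0.241 and 0.695 over 13463 genes). Those of the 2 E14.5 groups did not all pass a limit of 0.1 (0.0783, 0.127 and 0.559). The numbers were therefore not taken to pair the samples for the age difference. Deviations within a group of 3 sum to 0, so a shift shared by the samples numbered 3 can also raise the values for numbers 1 and 2. Totals of 76417891 to 125996587 counts and 3 samples per group set the precision.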

Additional observations from a re-analysis of the deposited data

Results flagged for a closer look

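The difference between the 2 ages in the Fgf8 effect was itself tested, and it passed the threshold for 3921 genes. The late, fading and reversing classes were drawn from these genes only, so each such gene named above passed by definition. The named genes that were called at both ages in opposite directions are gathered here with their log2 age differences. Those that rose then fell were Cldn2 (-3.30), Lrrc74b (-2.79), Gas2l2 (-2.70), Uckl1os (-2.52), Lrrc34 (-2.41), Rasef (-2.38) and Cilp (-2.05), and the Y-linked Uty (-2.29), Ddx3y (-2.15), Eif2s3y (-2.09) and Kdm5d (-2.08). Those that fell then rose were Pcolce2 (2.35), Atp6v0d2 (2.21), Ambn (2.06), Dkk1 (1.92), Xist (1.84), Pygm (1.80) and Cspg4 (0.98).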

How the results depend on the processing

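The call for the age difference kept its direction and its side of the threshold for 78 of the 125 named genes called, in up to 22 settings each. The other 47 lost it in at least 1 setting, and 2 of these, Ina (-1.662) and Snap25 (-0.085), changed direction without E16.5 mutant libraries 1 and 3. Of the named genes not called, Mb was called in 4 settings, Shox2 in 3 and Kit in 2. Some genes not called also changed sign. Fgf8 was at -0.247 in the samples numbered 1 and 2 alone, and Cryaa, a lens crystallin, at 0.114 by limma-voom. Over all settings run, Cryaa ranged from -1.284 to 1.188 and Crybb3, another lens crystallin, from -0.132 to 0.541.

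Leaving out each library in turn gave 2942 to 4723 genes for the age difference, 456 to 1256 for the E14.5 effect and 4430 to 6197 for the E16.5 effect. It gave 60 to 276 reversing, 2216 to 3565 late and 119 to 350 fading genes. DESeq2 called 1771 genes at E14.5, 379 reversing and 446 fading. A 2-fold minimum left 344 genes for the age difference, 58 more positive and 286 more negative. Upper-quartile scaling moved the median of all genes to 0.034 and gave 2142 more positive and 1947 more negative genes.

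The replicate numbers as a set were not taken to pair the samples over the 4 groups, where the lowest same-number correlation was 0.0566. Samples numbered 3 did deviate together, at 0.542 to 0.695, and the main fit has no term for them. With the replicate block, 6055 genes were called for the age difference, 2798 at E14.5, 693 reversing and 753 fading. A term for the samples numbered 3 gave 2480 at E14.5, 531 reversing and 696 fading. The samples numbered 1 and 2 alone gave 1961 for the age difference, 294 at E14.5, 16 reversing, 1585 late and 92 fading, with 2 samples per group. Without E16.5 mutant libraries 1 and 3 there were 2017 for the age difference, 2698 at E16.5 and 1334 late. Apart from the smaller number of samples, the cause of these moves was not tested.

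Library totals were 76417891 counts or more, and 3 samples per group limit the precision. Genes below 1 CPM at E14.5, such as Dsc1 and Gas2l2, have fold changes there that rest on small levels.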

Other observations

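Notch genes had more positive than negative age differences. Of 18, all tested, 7 were more positive and 1 more negative, with 7 late rises and a median of 0.253. Hey2 and Heyl, transcriptional repressors induced by Notch, had age differences of 1.11 and 1.10. Hes5, another such repressor, stood at 0.551, 0.506 and 0.423 CPM in E14.5 controls, 0.322, 0.246 and 0.438 in E14.5 mutants, 0.227, 0.225 and 0.0447 in E16.5 controls, and 3.93, 6.905 and 4.54 in E16.5 mutants. The E16.5 mutants lay above the other 9 libraries, mutant 2 the highest. Its age difference was 5.50 (SE 0.59, adjusted p = 5.13e-05), and 5.96 without E16.5 mutants 1 and 3. Dll3, a Notch ligand that acts as an inhibitor in the same cell, had an age difference of 4.03 and was under 1 CPM outside the E16.5 mutants.

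The counts that follow stand beside 9.97% of all genes tested that were more positive and 12.4% that were more negative, and several lie near or below these shares. Osteoclast genes gave 5 more positive and 1 more negative of 16 tested (median 0.299). Among 14 tooth genes tested of 15, 3 were more positive and 0 more negative (median 0.644). Skeletal muscle had 1 and 0 of 25 tested of 27, macrophages and white blood cells 1 and 1 of 22, and the Hedgehog pathway 2 and 2 of 17 tested of 18. Schwann cell and glia genes gave 3 and 2 of 14, tendon genes 4 and 0 of 17, and erythroid genes 0 and 2 of 11 tested of 16. Hypoxia and glycolysis genes gave 0 and 3 of 20 tested of 21, immediate early and heat shock genes 2 and 2 of 21 tested of 22, and cell cycle inhibitors and p53 genes 0 and 2 of 20. Adipocyte genes gave 2 and 1 of 9 tested of 12. Immediate early and heat shock genes gave 7 more positive and 1 more negative of 22 then tested without E16.5 mutants 1 and 3, and their median went from -0.044 to 0.476. In the same setting the tooth list gave 5 and 0, the Schwann cell and glia list 1 and 0, hypoxia genes 0 and 2, p53 genes 0 and 1, adipocyte genes 1 and 1 of 11, and skeletal muscle and macrophage genes 0 and 0. The median age difference was -0.14 over 10 tested of 14 lens genes and 0.155 over 5 tested of 8 melanocyte genes.

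Ngfr, the low-affinity neurotrophin receptor, rose at both ages and further at E16.5. It stood at 124, 114 and 127 CPM in E14.5 controls, 159, 153 and 162 in E14.5 mutants, 42.2, 40.6 and 43.7 in E16.5 controls, and 101, 93.2 and 99.6 in E16.5 mutants, an age difference of 0.84 (SE 0.08, adjusted p = 3.24e-05). Mdm2, the ubiquitin ligase that limits p53, fell by 0.44 at E16.5 on the log2 scale and was at 58.9 to 61.1 and 59.4 to 61.3 CPM in E14.5 controls and mutants.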
